A study of Mus musculus with 14 samples.

Results

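The miR-290 to miR-295 cluster is a row of microRNA hairpins on mouse chromosome 7 that is read by total RNA sequencing as the precursor of the mature microRNAs. Its members were taken as every annotated gene whose name begins with Mir29 and which lies in a window of a few kb around the cluster (mm10), which gave 9 genes of the 54446 gene identifiers in the files and of 1183 identifiers named as microRNA genes. The cluster itself was chosen by measured values: Mir291a, Mir291b, Mir292 and Mir295 had been called higher than untreated at all 3 later times in wild-type cells. The wild-type changes over time are therefore given as a description with no test, and tests are given for the Tet1/2 double knockout (DKO) time course, whose contrasts the choice did not use. The fit estimates the spread over all 7 groups, wild-type libraries included, so these tests are not fully independent of the choice, and counts from a fit of the DKO libraries alone are given beside them. All 14 libraries came from E14, an established line of mouse embryonic stem (ES) cells grown in serum with leukaemia inhibitory factor and without feeder cells. Wild-type cells were sampled untreated (0 h) and after 24, 72 and 144 h with INK128, an inhibitor of the mTOR kinase, and Tet1/2 DKO cells at 0, 24 and 72 h with the same inhibitor, which makes 7 groups of 2 replicates. The DKO cells carried Cas9-made deletions in Tet1 and Tet2, 5-methylcytosine oxidases, and were grown from single sorted cells of the same line, so that the effect of the deletions and of the clone cannot be told apart. The cells were sorted before RNA was extracted, and synthetic spike-in RNA was added for scaling.

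The cluster is transcribed as 1 long primary transcript from which the nuclear enzyme Drosha and its partner Dgcr8 cut the hairpins. Dicer1 then trims each hairpin to a pair of mature arms, of which the one loaded into an Argonaute protein finds messages through its seed, bases 2 to 8. These microRNAs are among the most abundant of mouse ES cells and are known for speeding the passage from G1 to S phase by repressing cell cycle inhibitors. RNA libraries of this kind capture the primary transcript and its hairpin regions, and mature microRNAs were not measured.

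The mature sequences show how the members form families. The RefSeq (GRCm38.p6) sequences used here held 17 mature arms for the 9 genes, with 11 different seeds. The 3p arms of the plus-strand hairpins are shown first, because they carry the seed for which the cluster is known, with the seed in capitals and written 5′ to 3′. The first 3 share 1 seed. The 3p arm of Mir292, miR-292a-3p, was missing from the sequences used here. It is therefore neither shown nor counted, and its seed was not examined.
miR-291a-3p: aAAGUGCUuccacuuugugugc
miR-294-3p: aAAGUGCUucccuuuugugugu
miR-295-3p: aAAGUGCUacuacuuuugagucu
miR-291b-3p: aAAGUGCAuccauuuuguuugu
miR-290a-3p: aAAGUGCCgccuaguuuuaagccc
miR-293-3p: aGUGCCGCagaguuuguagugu
The letters AAGUGC stood within the first 9 bases of 5 of these 6 arms, and of 19 of all 1738 mature mouse sequences in the table (1.09%). The others include arms of Mir302b, Mir302c, Mir302d, Mir17, Mir20a, Mir20b, Mir93, Mir106a and Mir106b, which belong to related clusters.

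The 5p arms form families of their own and are shown for that reason. The first 3 share the seed CUCAAAC and the next 2 the seed AUCAAAG.
miR-290a-5p: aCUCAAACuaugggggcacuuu
miR-292a-5p: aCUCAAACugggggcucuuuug
miR-293-5p: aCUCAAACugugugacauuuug
miR-291a-5p: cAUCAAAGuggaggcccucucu
miR-291b-5p: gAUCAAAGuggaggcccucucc
miR-294-5p: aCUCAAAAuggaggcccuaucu
miR-295-5p: aCUCAAAUguggggcacacuuc
The same 3p seed (AAGUGCU) thus belongs to Mir291a, Mir294 and Mir295, whose 5p seeds all differ from each other.

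On the plus strand lie 7 hairpins, in the order Mir290a (chr7:3218626-3218708), Mir291a (chr7:3218919-3219000), Mir292 (chr7:3219189-3219270), Mir291b (chr7:3219482-3219560), Mir293 (chr7:3220343-3220422), Mir294 (chr7:3220641-3220724) and Mir295 (chr7:3220773-3220841). Each is annotated over 69 to 84 bp, they are 48 to 782 bp apart, and the row spans 2216 bp. Mir290b (chr7:3218638-3218695) and Mir292b (chr7:3219198-3219259) are annotated on the minus strand, opposite Mir290a and Mir292. All but Mir290a and Mir290b lie inside the last of 10 exons (chr7:3218784-3222560, 3777 bp) of Nlrp12, a gene of the NOD-like receptor family transcribed in the opposite direction. The counting was not stated to use strand, and reads of Nlrp12 and of the cluster cannot be told apart where they overlap. The minus-strand hairpins were close to 0, with at most 0.487 TPM (a length-scaled share of the library in which all genes sum to 1000000) for Mir290b and 0.0579 TPM for Mir292b over the 14 libraries. These were at most 2.24% of Mir290a and 0.203% of Mir292 in the same library, and both genes failed the filter of a mean of at least 1. The 7 plus-strand hairpins passed it and exceeded 7 on the spike-in scale in every library, so none of them passed through 1 group alone. They are the members described from here on.

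**Figure D1:**
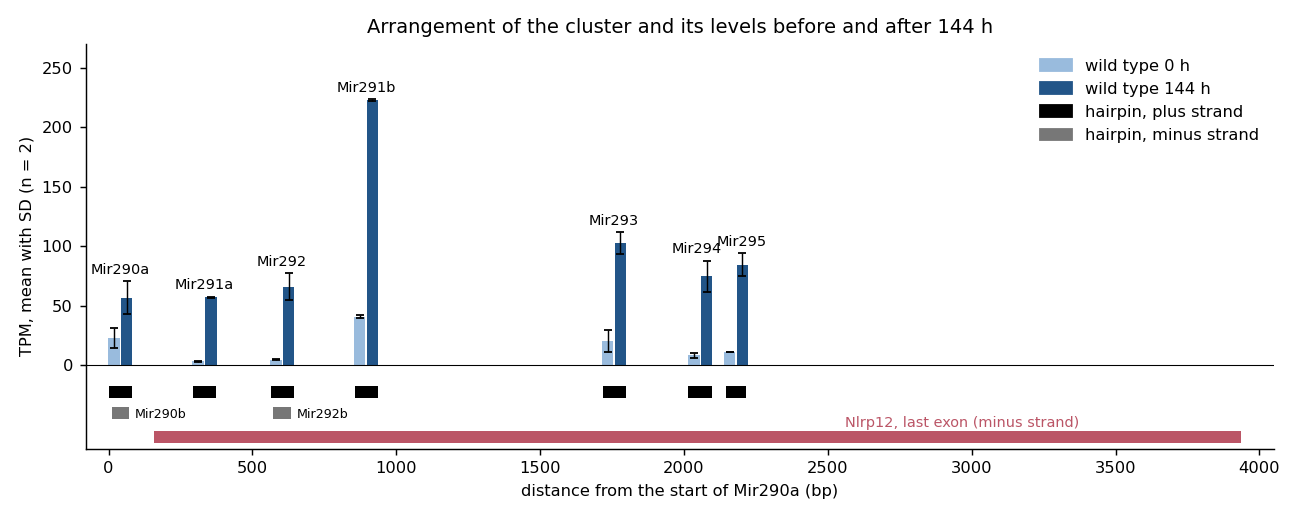
Map of the cluster by distance from the start of Mir290a in bp, with hairpins drawn to scale (black, plus strand; grey, minus strand) above the last exon of Nlrp12 (red). Bars give deposited TPM in wild-type cells at 0 h (light) and 144 h (dark) as mean with SD of 2 libraries; every 144 h bar is taller than its 0 h bar, and Mir291b is the tallest at both times, 40.8 and 223 TPM.

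The deposited TPM sum to 1000000 in each library, between 28306 and 29927 gene identifiers were above 0, and the 10 highest took 16.3% to 26.5% of a library. Read depth cannot be derived from TPM and was unknown. Levels were scaled by a spike-in factor of 1 to 2.81 a library (higher at 0 h than later in wild-type cells), and both scales are given where they differ, since TPM follows a gene's share of the RNA and spike-in normalized TPM its amount relative to the added RNA. The ES cell markers Pou5f1, Sox2, Nanog, Zfp42, Esrrb and Klf4 summed to 2193 to 2810 TPM in every library, with no marker under 66.4 TPM, and 5 of 6 fibroblast markers stayed under 1 TPM (list sum 1.29 to 17.7). The trophectoderm list summed to 5.91 to 13.2 TPM. The formative and primed list stood at 164 and 223 TPM in untreated wild type, 127 and 129 TPM after 24 h, 196 and 261 TPM at 72 h, and 288 and 315 TPM after 144 h, so that the 144 h libraries lay above both untreated ones and the 24 h libraries below. In the DKO it stood at 145 and 159.6 TPM untreated, 92.2 and 125 TPM at 24 h, and 117 and 148 TPM after 72 h. The primitive endoderm list stood at 66.1 and 116 TPM in wild type at 24 h, and at 17.6 and 48.5 TPM in the DKO at 24 h, against 8.47 and 21.7 TPM in untreated wild type and 8.59 and 24.4 TPM in the untreated DKO, and the part of this list or of the formative and primed list in the cluster's change was not tested. Tet2 ranged from 15.9 to 22.2 TPM in the libraries labelled DKO and from 96.0 to 143 TPM in wild type. Tet1 ranged from 147 to 248 and from 191 to 349 TPM, and its remaining reads can come from exons outside the deletion. Less RNA per cell and fewer cells of a type cannot be told apart in these bulk samples.

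In wild-type cells 6 of the 7 hairpins averaged 2.48 to 8.23 times their untreated level at each later time on the spike-in scale, and Mir290a 1.21 to 1.48 times. Mir291b, whose 3p arm carries the seed AAGUGCA, was the highest hairpin in 14 of 14 libraries on the length-scaled TPM. On the spike-in scale its level was 87.9 and 84.4 in the untreated libraries, 215 and 307 after 24 h, 275 and 291 at 72 h, and 239 and 223 after 144 h. Both untreated libraries lay below all 6 treated ones. Mir291a, a source of the AAGUGCU seed, was the lowest hairpin in 11 of 14 libraries. Its level was 7.02 and 7.41 untreated, 33.5 and 74.9 after 24 h, 54.3 and 52.6 at 72 h, and 61.8 and 56.9 after 144 h. The untreated replicates were within 1 unit of each other, while the 24 h replicates were far apart.

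Mir292, with the 5p seed CUCAAAC, stood at 9.95 and 10.9 untreated, 33.5 and 84.6 after 24 h, 67.0 and 75.8 at 72 h, and 62.2 and 74.5 after 144 h. Mir295, which shares the 3p seed of Mir291a, stood at 24.2 and 23.3 untreated, 64.4 and 127 after 24 h, 98.4 and 128 at 72 h, and 97.8 and 77.8 after 144 h. For both, every treated library was above both untreated ones. Mir294, the third carrier of that seed, went from 17.8 ± 3.76 (SD, n = 2) untreated to 69.0 ± 42.7 at 24 h, 101 ± 22.9 at 72 h and 77.0 ± 10.1 at 144 h. Mir293, whose 3p seed GUGCCGC is outside that family, went from 42.7 ± 19.4 to 107 ± 44.7, 153 ± 45.3 and 106 ± 4.25 at the same times. Mir290a, the first hairpin and the only one clear of the Nlrp12 exon, stood at 36.0 and 60.7 untreated, 53.4 and 90.2 after 24 h, 73.1 and 64.9 at 72 h, and 50.8 and 66.6 after 144 h. Its untreated range overlapped those of 24 h and 144 h.

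**Figure D2:**
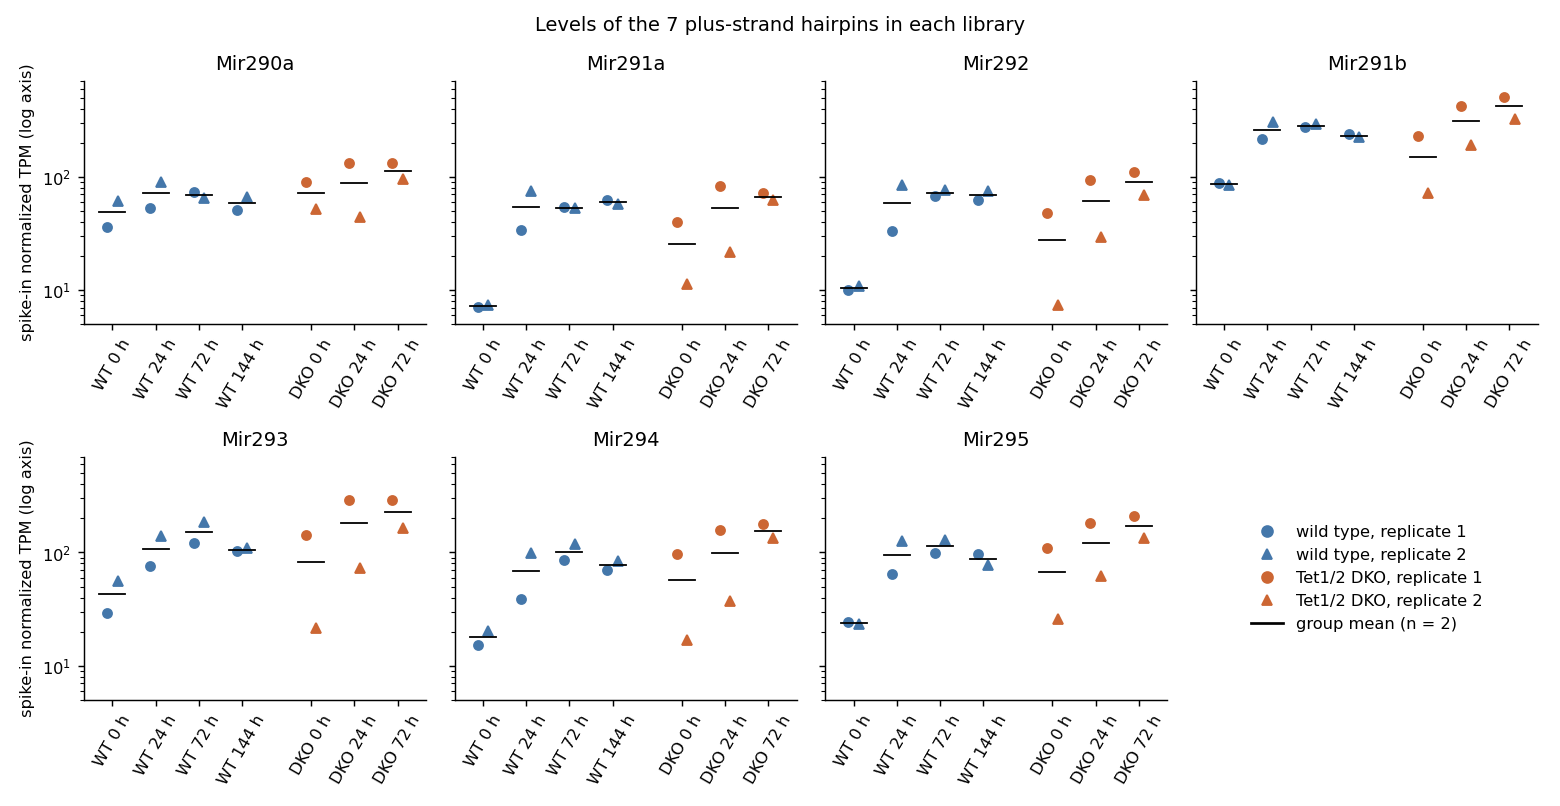
Spike-in normalized TPM (log axis) of each plus-strand hairpin in each of 14 libraries, by genotype and hours of mTOR inhibition (circle, replicate 1; triangle, replicate 2; bar, mean of 2). Untreated wild-type libraries are the lowest of the wild type in all panels but Mir290a, and in the DKO replicate 1 lies above replicate 2 at each time.

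The values that chose the cluster are these wild-type changes, given here on the scale of log2(spike-in normalized TPM + 1). Mir291a differed from untreated by 2.64, 2.73 and 2.88 at 24, 72 and 144 h, Mir292 by 2.25, 2.66 and 2.60, Mir295 by 1.88, 2.19 and 1.83, and Mir291b by 1.57, 1.70 and 1.41, with standard errors of 0.41 to 0.59. Just outside the choice, Mir294 differed by 1.76, 2.44 and 2.06, Mir293 by 1.32, 1.86 and 1.37, and Mir290a by 0.56, 0.55 and 0.31. Both treated libraries lay above both untreated ones for 6, 7 and 6 of the 7 hairpins at 24, 72 and 144 h, while this was so for 12.1%, 12.9% and 3.61% of all 18232 genes tested. Of those genes 1.25%, 0.697% and 0.461% were called higher at the 3 times and 8.73%, 7.6% and 50.5% lower, by limma with Benjamini-Hochberg adjusted p under 0.05, and the median gene differed by -0.33, -0.33 and -0.83. Nothing is read from the members' counts here, since the choice used these contrasts. In deposited TPM the median gene differed by -0.01, 0.04 and 0.05, and the hairpins by 0.91 to 2.85, 0.95 to 2.99 and 1.30 to 3.72. The summed level of the 7 hairpins rested at 844 ± 99.7 (spike-in scale, n = 2) at 72 h and 688 ± 4.98 at 144 h, whereas the same sum in TPM was 541 ± 103 and 666 ± 36.8, so that the order of the last 2 times depends on the scale.

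In the Tet1/2 DKO cells the hairpins also stood higher after mTOR inhibition, but the replicates were far apart. The summed level was 756 and 207 in the untreated libraries, 1367 and 458 at 24 h, and 1497 and 983 after 72 h on the spike-in scale. Replicate 1 was 3.66 times replicate 2 at 0 h, 2.99 times at 24 h and 1.52 times at 72 h. Between same-numbered libraries the sum at 24 h was 1.81 and 2.21 times that at 0 h, and at 72 h 1.98 and 4.75 times. In deposited TPM the sum was 269 and 87.1 untreated, 612 and 337 at 24 h, and 591 and 569 after 72 h. Replicate 1 at 0 h was thus closer to the treated libraries than replicate 2 was.

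Mir291b stood at 227 and 72.2 in the untreated DKO libraries, 425 and 191 at 24 h, and 509 and 326 after 72 h (spike-in scale). Mir292 stood at 48.1 and 7.34, then 92.8 and 29.5, then 110 and 69.4. In both, the 72 h libraries lay above the untreated ones, and those of 24 h overlapped with them. Mir291a stood at 39.5 and 11.3 untreated, 83.7 and 21.8 at 24 h, and 71.8 and 61.9 after 72 h. Mir295 stood at 109 and 25.7, then 181 and 61.9, then 210 and 133. Mir293 went from 82.4 ± 86.0 to 183 ± 156 and 226 ± 87.4, and Mir294 from 57.4 ± 57.2 to 98.3 ± 85.8 and 155 ± 31.1 (n = 2). Mir290a went from 71.2 ± 27.5 to 88.6 ± 63.4 and 113 ± 25.6, the smallest log2 difference of the 7.

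At 72 h against 0 h in the DKO, 2 of 7 hairpins were called higher, where 0.713% of the 18232 genes were called higher and 2.95% lower. Mir291b was higher by 1.66 ± 0.41 on the log2 scale (SE; adjusted p = 0.0305, limma) and Mir292 by 2.13 ± 0.59 (adjusted p = 0.0484). The other differences were 1.94 for Mir293, 1.88 for Mir294, 1.63 for Mir295, 1.60 for Mir291a and 0.69 for Mir290a, with adjusted p of 0.0792 to 0.376. The 72 h libraries lay above both untreated ones for 7 of 7 hairpins, against 15.7% of all genes. The 7 hairpins come from 1 primary transcript and are not replicates of each other, so their counts are not counts of separate observations. The median of the hairpins was 1.66 and that of all genes -0.12. With the replicate number as a block within each genotype, 6 of 7 were called, all but Mir290a, where 5.34% of genes were called higher, and the adjusted p was 0.000118 for Mir291b, 0.000282 for Mir292 and 0.0683 for Mir290a. In deposited TPM 7 of 7 were called, where 17.2% of genes were, and the 72 h libraries lay above the untreated ones for 44.2% of genes. A fit of the DKO libraries alone called 5 of 7, where 0.208% of genes were called higher. The count of 2 changed, in either direction, when single libraries were left out, wild-type libraries of 24 h and 72 h among them. Such fits leave 1 library in a group, and only the size of the change is given. The mean log2 change of the 7 hairpins was 1.65 with all libraries, 0.65 without DKO 0 h replicate 2 and 2.64 without DKO 0 h replicate 1.

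At 24 h against 0 h in the DKO no hairpin was called by limma on the spike-in scale, and 3 of 7 had an unadjusted p under 0.05, as had 34% of all genes. The differences ran from 0.16 for Mir290a to 1.40 ± 0.59 for Mir292 (adjusted p = 0.0986), with Mir291b at 1.14 ± 0.41 (adjusted p = 0.0569). Of all genes 0.505% were called higher and 18.7% lower, the median gene stood at -0.49, and 3.5% of genes had both 24 h libraries above both untreated ones, which no hairpin had. With the replicate block within each genotype, 6 of 7 hairpins were called, again all but Mir290a (adjusted p = 0.65), where 1.95% of genes were called higher. In deposited TPM Mir291a, Mir291b, Mir292 and Mir295 were called, where 11.6% of genes were, and 6 of 7 had no overlap, as had 28.2% of genes. On the spike-in scale hairpins were called in some fits with a single library left out, wild-type libraries of 24 h among them. A fit of the DKO libraries alone called 1 of 7, where 0.154% of genes were called higher. The mean log2 change of the 7 hairpins was 0.99 with all libraries and turned to -0.0035 without DKO 0 h replicate 2. It was 0.14 without DKO 24 h replicate 1, 1.83 without DKO 24 h replicate 2 and 1.98 without DKO 0 h replicate 1. These means do not pair libraries by replicate number. Between same-numbered libraries the summed spike-in level at 24 h was 1.81 and 2.21 times that at 0 h.

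From 24 h to 72 h in the DKO the hairpins differed by 0.52 to 0.98, with a median of 0.62, beside a median of 0.37 over all genes, 0.56 over the 336 other microRNA genes tested and 0.63 over 478 other genes of at most 100 bp. None of the 7 was called by limma, with or without the block, and none had an unadjusted p under 0.05 (15.9% of all genes had), whereas 1.32% of genes were called higher and 0.0932% lower. Without DKO 24 h replicate 1 the mean change of the 7 hairpins was 1.502 in place of 0.66. It turned to -0.19 without DKO 24 h replicate 2 and was 0.38 without DKO 72 h replicate 1. Between same-numbered libraries the summed spike-in level at 72 h was 1.09 and 2.15 times that at 24 h. In deposited TPM it was 0.966 and 1.69 times. Mir294 had the largest difference, 0.98 ± 0.61, and the libraries of the 2 times overlapped for each hairpin.

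**Figure D3:**
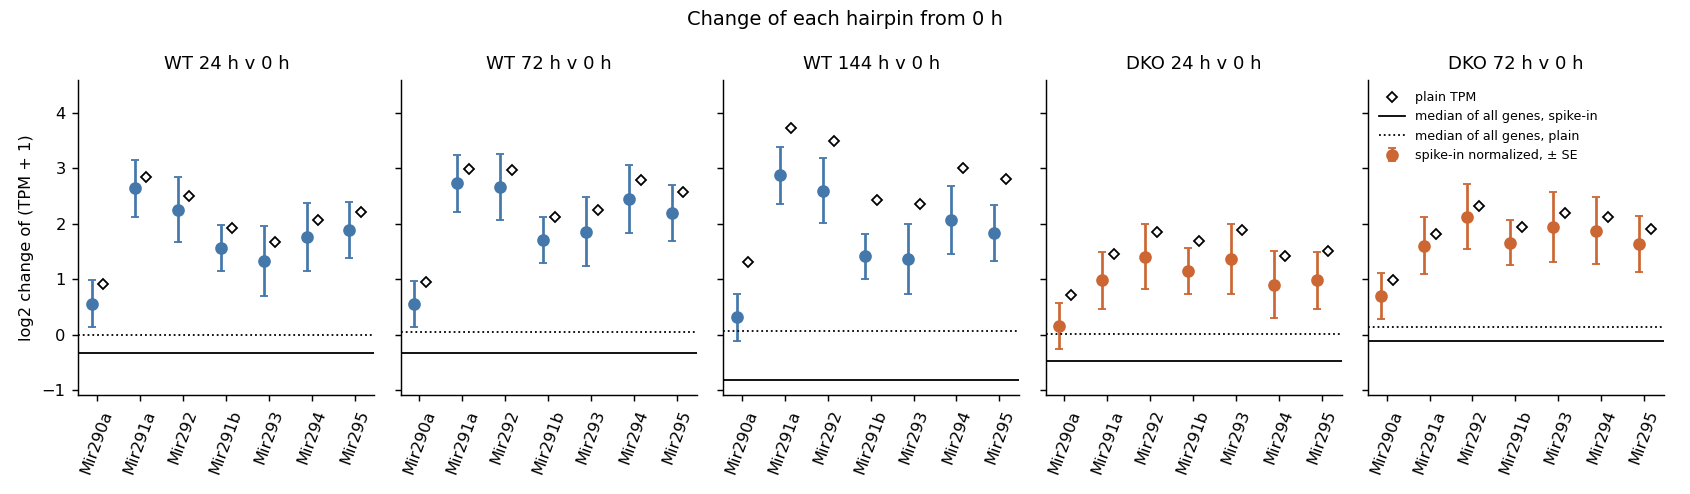
Change of each plus-strand hairpin from 0 h in 5 contrasts, as the log2 difference of (TPM + 1), with spike-in normalized values as filled points ± SE and deposited TPM as open diamonds. Lines give the median of 18232 genes on either scale; all 7 hairpins lie above both lines on both scales in each panel, and Mir290a is the lowest.

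The genotypes are set side by side as a description, since the members' wild-type values entered the choice. Untreated, Mir291a averaged 25.4 ± 19.97 in the DKO and 7.21 ± 0.27 in wild type on the spike-in scale, and both DKO libraries lay above the wild-type ones for Mir291a and Mir295, as did those of 52.9% of genes. In deposited TPM this was so for Mir291a alone, where it was so for 24.4% of genes, and Mir295 overlapped. At 24 h no hairpin separated the genotypes, while 11.1% of genes were higher in both DKO libraries. At 72 h 5 of 7 were higher in both DKO libraries, as were 62.6% of genes, with log2 differences of 0.29 to 0.69 beside a median gene of 0.49. In deposited TPM the same differences were -0.12 to 0.27 and only Mir290a separated the genotypes, where 39.3% of genes were higher in both DKO libraries. Over all genes 0.0439% were called in either direction at 0 h, 0.0439% at 24 h and 0.329% at 72 h. In the order of the summed level (spike-in scale) wild type 0 h was lowest at 237 ± 38.4, followed by DKO 0 h at 481 ± 388, wild type 144 h at 688 ± 4.98, 24 h at 718 ± 288 and 72 h at 844 ± 99.7, DKO 24 h at 913 ± 643 and DKO 72 h at 1240 ± 364. Each neighbouring pair in this order overlapped.

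The share of each hairpin within a library does not depend on the scaling, and for Mir290a and Mir292 it did not overlap between untreated and treated libraries. Mir290a made up 11.99% to 25.01% of the summed TPM of the 7 hairpins in the 4 untreated libraries and 7.09% to 10.4% in the 10 treated ones, with no overlap. Mir292 made up 3.55% to 6.36% untreated and 6.45% to 10.8% treated, also with no overlap. Mir291a made up 3.35% and 2.81% in untreated wild type and 5.75% to 9.02% in treated wild type, whereas in the DKO it made up 5.23% and 5.45% untreated and 4.76% to 6.30% treated. Mir291b kept between 30.1% and 42.0% in all 14 libraries, and its untreated and treated ranges overlapped. Mir293, Mir294 and Mir295 also overlapped. The ratio of Mir291a to Mir290a was 0.195 and 0.122 in untreated wild type and 0.628 to 1.22 after treatment, and in the DKO it was 0.436 and 0.218 untreated and 0.498 to 0.653 after treatment. The hairpins other than Mir290a together were 4.81 and 3.34 times Mir290a in untreated wild type, 7.34 and 2.998 times in the untreated DKO, and 8.63 to 13.1 times in the treated libraries. Mir290a is the only 1 of the 7 outside the Nlrp12 exon. Reads of Nlrp12 can enter the other hairpins and so the shares of all 7, and their part was not tested.

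**Figure D4:**
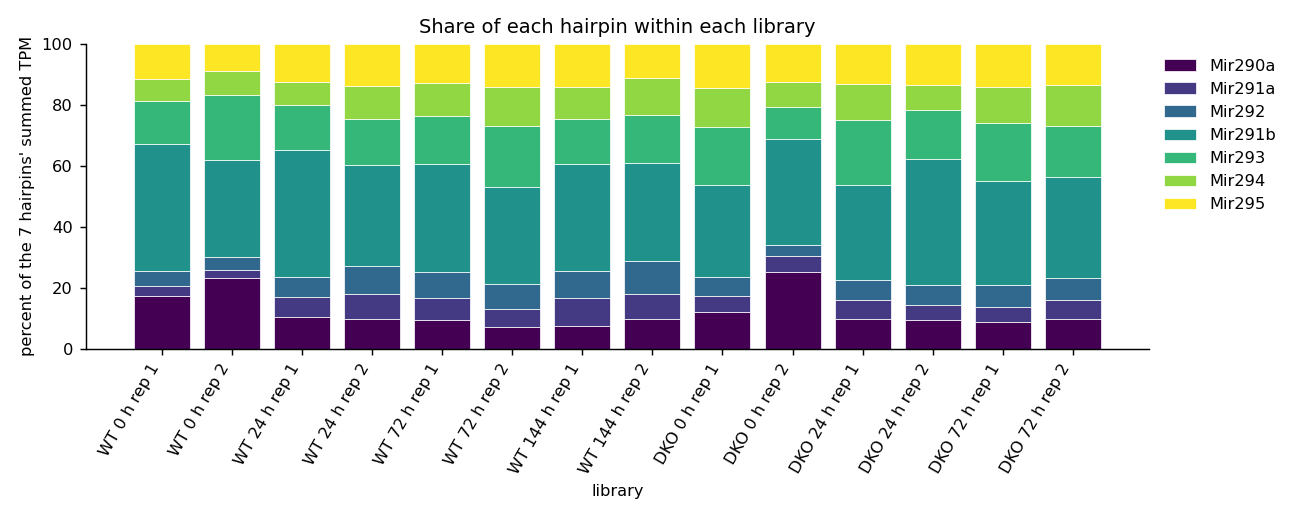
Share of each plus-strand hairpin in the summed TPM of the 7, in percent, for each library. Mir290a (bottom) takes 11.99% to 25.01% in the 4 libraries at 0 h and at most 10.4% in the 10 treated ones, and Mir291b takes the largest share in all 14.

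Across the 14 libraries the other 6 hairpins followed each other closely, with Pearson's r of 0.87 to 0.98 between pairs on the spike-in log2 scale, and Mir290a less so, with r of 0.70 to 0.83. On deposited TPM these ranges were 0.91 to 0.98 and 0.89 to 0.94. The points share the 0 h libraries and the scaling factors, and the values are descriptions.

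As a background of the same kind of annotation, 336 other microRNA genes passed the filter, and 478 other genes of at most 100 bp. In the DKO at 72 h 4 of the 336 were called higher and 4 lower with a median of 0.29, and at 24 h 1 was called higher and 23 lower with a median of -0.37. With the block within each genotype these counts were 52 and 38, and 6 and 56, where 5.34% of all genes were called higher and 13.2% lower at 72 h, and 1.95% and 38.1% at 24 h. Of the short genes 5 were called higher and 2 lower at 72 h, with a median of 0.25. The hairpins' medians of 1.66 and 0.98 at 72 and 24 h in the DKO stand beside these. In wild type the medians of the other microRNA genes were -0.36, -0.07 and -0.46 at 24, 72 and 144 h.

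The related clusters in which some members carry the AAGUGC letters are the Mir302 to Mir367, Mir17 to Mir92-1, Mir106a to Mir363 and Mir106b to Mir25 clusters. Of their 17 hairpins only 5 passed the filter (Mir367, Mir106a, Mir20b, Mir363 and Mir106b), and in the DKO none of these was called at 24 or 72 h by limma, with an unadjusted p under 0.05 for 0 and 1 of 5 (34% and 19.7% of all genes). Among these 5, Mir106a, Mir20b and Mir106b have an arm with the AAGUGC letters in the sequences used here, and Mir363 and Mir367 have none. In wild type at 144 h Mir363 was higher by 2.09 (adjusted p = 0.00157) and by 2.83 in deposited TPM. Mir367 was lower there by a log2 change of -1.37 (adjusted p = 0.0254), a call that was lost in deposited TPM (-0.72). It had also been lower at 72 h (-1.72, adjusted p = 0.0348), a call lost without any 1 of the 4 libraries compared. It is a low gene of at most 1.47 TPM, and the 144 h call was also lost without wild-type 0 h replicate 2 or 144 h replicate 1. The 6 hairpins of the Mir17 cluster were at most 0.0894 TPM in any library while their annotated host transcript Mir17hg, which was named after its values were seen, ranged from 14.3 to 42.4 TPM. No longer transcript is annotated on the plus strand over the miR-290 to miR-295 cluster in the annotation used here, and its bearing on the hairpin values was not tested.

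The neighbourhood of the cluster was examined for other genes with the same pattern. Within 100 kb of the hairpins 9 other genes are annotated, and AU018091, Gm3375, Nlrp12 and Myadm, which passed the filter, are described. Nlrp12 stood at 17.8 and 23.0 in untreated wild type, 24.6 and 31.7 after 24 h, 27.6 and 27.3 at 72 h, and 20.7 and 19.5 after 144 h (spike-in scale). In the DKO it stood at 33.3 and 23.2 untreated, 47.7 and 25.6 at 24 h, and 51.7 and 30.5 after 72 h. No contrast over time called it on this scale (log2 differences of -0.01 to 0.50), with or without the block, while in deposited TPM it was called higher at each later time in both genotypes, by 0.77 to 0.95. Its r with the mean of the 7 hairpins was 0.73 on the spike-in scale and 0.93 on deposited TPM over 14 libraries, and reads shared with the hairpins can enter both.

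The other neighbours described fell or did not pass the test on the spike-in scale. Of all genes 8.73%, 7.6% and 50.5% were called lower on it in wild type at 24, 72 and 144 h, and 18.7% in the DKO at 24 h. On the log2 spike-in scale Gm3375 fell in wild type by 0.97, 1.17 and 1.68 at 24, 72 and 144 h (adjusted p = 0.0348, 0.0171 and 0.000299, limma), and in the DKO at 24 h by 1.06 (adjusted p = 0.0145). The calls at 24 and 72 h were lost without any 1 of the libraries compared, except DKO 24 h replicate 1, and the wild-type 24 h call also without either 144 h library, while the 144 h call was not lost. Myadm, a membrane protein gene of myeloid differentiation, fell by 1.71 at 144 h (adjusted p = 0.00019) and AU018091 by 1.36 (adjusted p = 0.00265), but neither was called in deposited TPM. In the DKO at 24 h Myadm fell by 0.96 (adjusted p = 0.0193), a call lost in deposited TPM and without either DKO 0 h library or DKO 24 h replicate 2. At 24 h AU018091 differed by 0.23 in wild type and 0.09 in the DKO on the spike-in scale and was not called, but in deposited TPM it was called higher, by 0.60 (adjusted p = 0.00635) and 0.65 (adjusted p = 0.00505), from 128 ± 12.6 to 195 ± 23.6 TPM and from 125 ± 5.45 to 197 ± 17.1 TPM. It was called lower in deposited TPM in the DKO at 72 h (-0.57, adjusted p = 0.0107). With the block Myadm was called lower in wild type at 24 and 72 h and AU018091 at 72 h, where 25.7% and 25.4% of all genes were at 24 and 72 h. In the DKO at 72 h 13.2% of all genes were called lower with the block. With the block AU018091 and Gm3375 were also called lower in the DKO at 72 h, with log2 differences of -0.88 and -0.75 (adjusted p = 0.00916 and 0.0244, and 0.127 and 0.143 with no block).

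Of 20 genes of microRNA processing that passed the filter, out of 23 names listed, none was called higher in any contrast over time on the spike-in scale without the replicate block. At 144 h in wild type 8 fell, beside 50.5% of all genes, with a list median of -0.57 and a median gene of -0.83. They included Tarbp2, the RNA-binding partner of Dicer1, at -1.62 (adjusted p = 0.000413), Xpo5, which exports hairpins from the nucleus, at -1.01, Lin28a, which blocks let-7 maturation, at -0.998, Tut7, a uridylating enzyme, at -0.92, Ddx5, a helicase of the Drosha complex, at -0.91, Ago2, the slicing Argonaute, at -0.89, and Dicer1 at -0.82. In deposited TPM 1 of 20 was called lower and 9 higher, where 15.6% of genes were called higher, Ago2 and Dicer1 stood at 0.13 and 0.19, and Tarbp2 at -0.60 was the only 1 of the 8 still below. The count of 8 fell without either wild-type 0 h library and without either 144 h library. Drosha and Dgcr8, which make the first cut, differed by -0.48 and -0.52 at 144 h and were not called (adjusted p = 0.146 and 0.174). With the block Dgcr8 was called lower (adjusted p = 0.0349), while in deposited TPM both were called higher, Drosha by 0.54 (adjusted p = 0.00315) and Dgcr8 by 0.50 (adjusted p = 0.0132).

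In the DKO 2 of the 20 fell at 24 h, where 18.7% of genes did, and none was called at 72 h, where 1 of 20 had an unadjusted p under 0.05, beside 19.7% of all genes. In deposited TPM 7 were called higher and 2 lower at 24 h, where 11.6% of genes were higher and 13.3% lower, and 13 higher and 1 lower at 72 h, where 17.2% were higher and 9.06% lower. Tarbp2 fell by 1.22 (adjusted p = 0.00711) and Lin28b, an RNA-binding protein that blocks let-7 processing, by 1.34 (adjusted p = 0.0146). Both had also fallen in wild type at 24 h, by 1.09 and 1.28, and both were called in deposited TPM. With the block 5 were lower at 24 h and 1 at 72 h in the DKO, where 38.1% and 13.2% of genes were, and Ago1, Ago3 and Lin28b were higher from 24 h to 72 h, where 12.7% were. In wild type 3 were lower and 1, Tnrc6c, higher at 24 h, where 25.7% of genes were lower and 4.48% higher, and 12 were lower at 144 h, where 66.3% of genes were. Ago1, Ago3 and Tnrc6c were named after their values were seen. The count of 2 in the DKO fell without DKO 0 h replicate 1 or DKO 24 h replicate 2, and rose without DKO 24 h replicate 1. The wild-type count at 24 h fell without any 1 of the 4 libraries compared.

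Of the 10 listed targets of these microRNAs, 9 passed the filter. In the DKO none was called at 24 or 72 h by limma on the spike-in scale, with an unadjusted p under 0.05 for 0 and 2 of 9 (34% and 19.7% of all genes), and the list medians were -0.19 and 0.07. With the block 1 of 9 was lower at 24 h (Cdkn1a), and 1 was higher and 1 lower at 72 h. Of all genes 38.1% were lower at 24 h with the block, and 5.34% higher and 13.2% lower at 72 h. Cdkn1a, the cyclin-dependent kinase inhibitor p21, differed there by -0.98 (adjusted p = 0.169, and 0.0115 with the block). In deposited TPM 3 of 9 were called higher at each of these times, among them Casp2 at 72 h, where 11.6% and 17.2% of genes were. In wild type none was called at 24 or 72 h on the spike-in scale, with an unadjusted p under 0.05 for 1 and 3 of 9 (26.7% and 25.7% of all genes). Lats2, a Hippo pathway kinase, stood at 0.96 at 24 h (adjusted p = 0.0836, and 0.0115 with the block) and was called higher in deposited TPM, by 1.17 (adjusted p = 0.00392). With the block it was the only 1 called at 24 h, and at 72 h Ei24 was higher (0.61, adjusted p = 0.0411) and Cdkn1a and Dkk1 lower, where 2.85% of genes were higher and 25.4% lower. In deposited TPM 3 of 9 were called higher at each of these times, where 15.8% and 12.6% of genes were, among them Casp2 at both and Ei24 at 72 h (1.03, adjusted p = 0.000181). Ei24 was named after its values were seen. In wild type at 144 h 5 of 9 fell, beside 50.5% of all genes, with a list median of -0.81 beside -0.83 for all genes. They were Dkk1, a secreted Wnt inhibitor, at -1.57 (adjusted p = 0.0133), Cdkn1a at -1.27 (adjusted p = 0.0137), Lats2 at -1.06, Rela at -0.82 and Fbxl5 at -0.80. Rbl2, a pocket protein of the retinoblastoma family, stood at -0.81 (adjusted p = 0.083) and Casp2, an apoptotic caspase, at 0.08. In deposited TPM none of the 9 was called lower and 3 were called higher (15.6% of genes), Casp2 by 1.07, and Rela and Fbxl5 stood above 0. With the block 7 of 9 were lower, as were 66.3% of genes. The count of 5 without the block fell when either wild-type 0 h library or either 144 h library was left out.

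Of the 4 transcription factors listed as binding the promoter of the cluster, none was called higher on the spike-in scale. In the DKO none was called at 24 or 72 h, with an unadjusted p under 0.05 for 3 and 2 of 4 (34% and 19.7% of all genes), and with the block 3 were lower at 24 h and 2 at 72 h, where 38.1% and 13.2% of genes were. Nanog differed by -0.97 and -1.15 (adjusted p = 0.0539 and 0.0678) and Tcf7l1, a repressor of Wnt targets, by -0.68 and -0.996 (adjusted p = 0.135 and 0.0846). In deposited TPM both were called lower at 72 h, Nanog at -0.85 (adjusted p = 0.0117) and Tcf7l1 at -0.68 (adjusted p = 0.00207), where 9.06% of genes were. At 24 h neither was called, and Sox2 was called higher at 0.37 (adjusted p = 0.0313), where 11.6% of genes were. In wild type Nanog fell by 1.30 at 72 h and 1.63 at 144 h (adjusted p = 0.0256 and 0.00128), and Tcf7l1 by 1.15 and 1.55 (adjusted p = 0.0309 and 0.00108). Both were also called lower in deposited TPM at these times, while the 72 h calls were lost without any 1 of the 4 libraries compared. Pou5f1 fell by 1.02 at 144 h (adjusted p = 0.00572), but stood at 0.01 in deposited TPM, and the call was lost without 144 h replicate 2. Sox2 was not called on the spike-in scale (-0.38 at 144 h) and was called higher in deposited TPM, by 0.64.

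The genes whose pattern was most like the cluster were ranked by Pearson's r with the mean log2 level of the 7 hairpins over 14 libraries, among 17190 genes of at least 200 bp outside the neighbourhood. The median r of those genes was 0.02, and 14 genes exceeded 0.9. Ccng2, cyclin G2, came first with r of 0.97, and on the spike-in scale it went from 6.87 ± 1.80 to 15.4 ± 2.77, 15.3 ± 1.64 and 14.2 ± 0.07 in wild type at 0, 24, 72 and 144 h, and from 10.1 ± 4.87 to 15.3 ± 5.51 and 23.1 ± 7.41 in the DKO. Irs1, an adaptor of the insulin receptor, followed with r of 0.95 at 0.63 ± 0.20 in untreated wild type and 2.43 ± 0.09 at 144 h. Gnao1, a G protein subunit, Bmf, a pro-apoptotic BCL2 relative, and Per3, a circadian clock gene, had r of 0.93. Bmf went from 12.2 ± 1.35 to 28.5 ± 2.89, 44.3 ± 0.21 and 29.2 ± 1.09 in wild type. By Spearman's rho Ccng2 was again first (0.98), and the others ranked 22 to 122. On deposited TPM the 5 ranked 7 to 98 with r of 0.92 to 0.96. These libraries share their scaling and their time points, so a likeness says only that the levels ran alike.

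**Figure D5:**
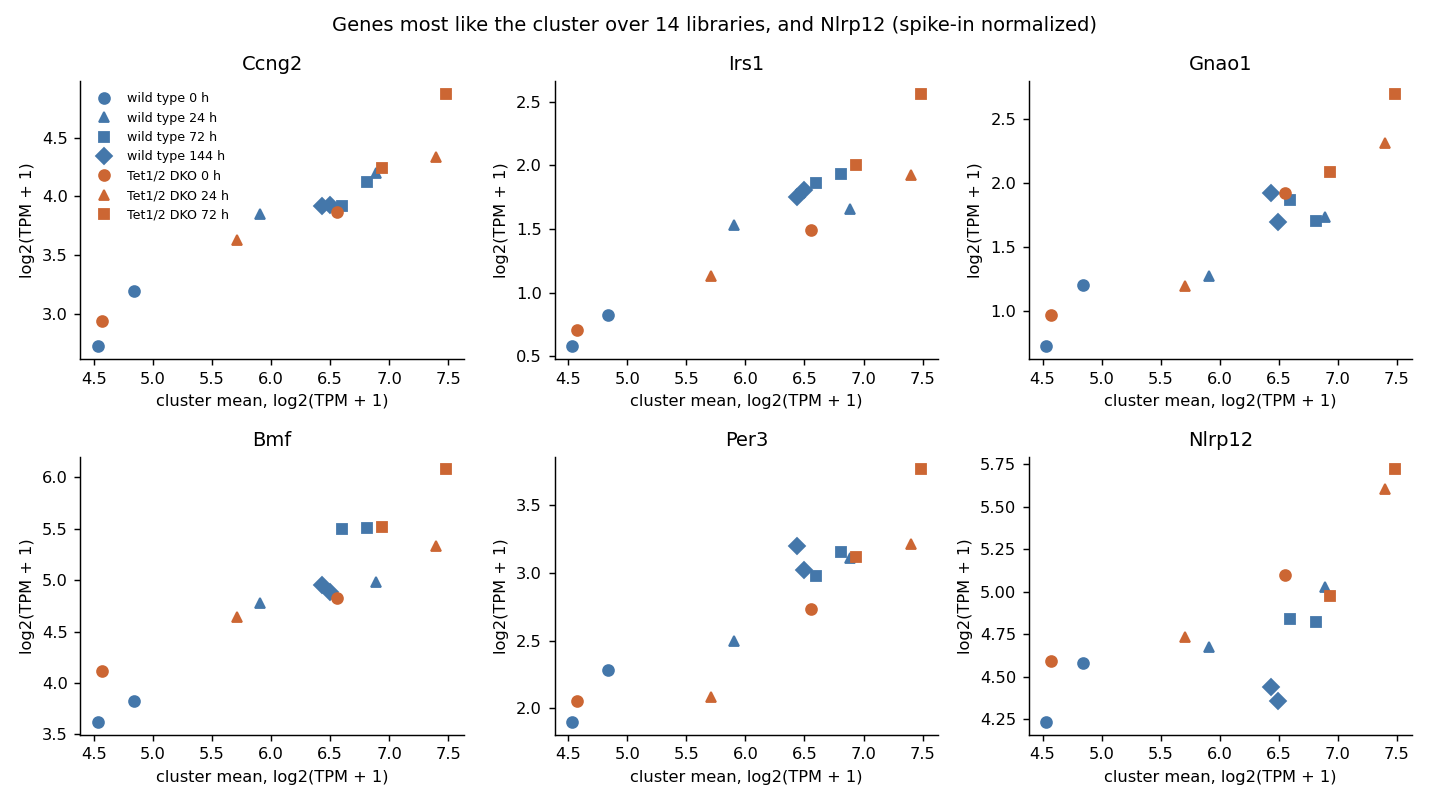
Level of the 5 genes most like the cluster, and of Nlrp12, against the mean of the 7 hairpins in each of 14 libraries, both as log2(spike-in normalized TPM + 1) (blue, wild type; orange, Tet1/2 DKO; marker shape, hours of mTOR inhibition). Ccng2 lies closest to a line, with r of 0.97, and the points of Nlrp12 scatter more, with r of 0.73.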

How the data were processed

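The authors trimmed reads with cutadapt (2.4), aligned them to mm10 with STAR (2.7.3a) and quantified GENCODE VM19 genes with StringTie (2.0), versions as in the submitters' processing notes. The deposited TPM carry no spike-in factor, and entries of 1 gene identifier were summed. Each library's factor was the median ratio of the authors' spike-in normalized table to the deposited TPM over 483 to 540 genes of at least 1 TPM. Genes with a mean of at least 1 on that scale (18232) were tested as log2(value + 1) with limma (3.58.1, R 4.3.3; trend) over all 7 groups with Benjamini-Hochberg adjustment at 0.05; changes of low genes are understated. Groups hold 2 libraries, whose spread may be technical in part.

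Replicate differences correlated within the DKO (0.22 to 0.34, 3 of 3 pairs over 0.1) and wild type (0.06 to 0.40, 5 of 6), not between genotypes (10 of 12 below 0). The study states that a replicate's time points were processed in parallel, so numbers pair libraries within a genotype.

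The code was tested on simulated data. Alternatives were deposited TPM, median centring, other pseudocounts and filters, replicate blocks, fits of 1 genotype, no trend, and each library left out. Members and gene lists were chosen with earlier results of these data known. Named were all members, tested neighbours (some items are not reported here), at most 6 called genes a list by size in wild type at 144 h, 12 fixed examples such as Drosha, Rbl2 and Sox2, and the 5 most alike genes. Mature sequences are from RefSeq (GRCm38.p6), exons from GENCODE on GRCm38.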

Additional observations from a re-analysis of the deposited data

How the results depend on the processing

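With 2 libraries a group, calls in the DKO turned on the setting. Hairpins called higher at 72 h against 0 h, 2 of 7 on the main scale, were 7 in deposited TPM, 6 with median centring, with a mean of at least 5 or when blocking on the replicate within genotypes, 5 in a fit of 1 genotype, 1 with a pseudocount of 0.1 or a replicate block over all libraries, and 0 with no filter or no trend. At 24 h, from 0, they were 6 when blocking on the replicate within genotypes, 4 in deposited TPM or with median centring, 2 with a mean of at least 5 and 1 in a fit of 1 genotype. Of all 18232 genes, those called higher at 72 h were 130 on the main scale and 3145 in deposited TPM. They were 974 with the block within genotypes and 38 in the fit of 1 genotype. At 24 h these counts were 92, 2109, 356 and 28. For the other settings no count over all genes is given, so their hairpin counts stand without a background. With a library left out the hairpin counts also changed, but such fits leave 1 library in a group, and only the size of the change is given. The mean log2 change of the 7 hairpins ran from -0.0035 to 1.98 at 24 h (main 0.99), 0.65 to 2.64 at 72 h (main 1.65) and -0.19 to 1.502 from 24 h to 72 h (main 0.66). The lowest values, without DKO 0 h replicate 2 and without DKO 24 h replicate 2, turned the direction. These means do not pair libraries by replicate number. Between same-numbered DKO libraries the summed spike-in level at 24 h was 1.81 and 2.21 times that at 0 h. At 72 h it was 1.09 and 2.15 times that at 24 h, or 0.966 and 1.69 times in deposited TPM. In wild type the mean log2 change ran from 1.22 to 2.20, 1.87 to 2.17 and 1.62 to 1.93 at 24, 72 and 144 h (main 1.71, 2.02 and 1.78). It was 2.38 and 2.73 in deposited TPM and 2.31 and 2.61 with median centring at 72 and 144 h. Mir290a at 144 h in wild type ran from -0.061 (without 0 h replicate 1) to 0.677. The cause was not tested.

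Over all genes, calls (higher, lower) were 92 and 3408 in the DKO at 24 h, 130 and 537 at 72 h and 241 and 17 between these, and 227 and 1592, 127 and 1385, and 84 and 9203 in wild type. In deposited TPM they were 2109 and 2426, 3145 and 1651, 815 and 272, 2883 and 2563, 2301 and 2080, and 2844 and 2134. When blocking on the replicate within genotypes they were 356 and 6943, 974 and 2403, 2316 and 160, 817 and 4693, 519 and 4633, and 191 and 12092. Of the listed genes called lower at 144 h in wild type on the spike-in scale, those that turned in deposited TPM were Ddx5 (0.12), Pou5f1 (0.0068), Rela (0.15), Tut7 (0.079), Ago2 (0.13), Fbxl5 (0.21), Dicer1 (0.19), Lin28a (0.028), Xpo5 (0.013) and Trim71 (0.24), and with median centring Rela (0.011), Fbxl5 (0.031), Dicer1 (0.012) and Trim71 (0.046). Depth is unknown, so no counting error can be given.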
